A study of Arabidopsis thaliana with 6 samples.

Results

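The RNA of young leaves carrying either of the ore15 alleles was set against that of wild-type leaves, to find the genes whose level moved the same way whichever allele the plant carried. All 6 arrays of the series enter this comparison. The 4 mutant arrays, 2 of ore15-1D and 2 of ore15-2, form one side, and both arrays of Col, the wild type, form the other. ore15-1D is a dominant allele of ORE15 (AT1G31040) and ore15-2 is a loss-of-function allele, which is background knowledge of these lines and not given in the labels, so the alleles change ORE15 in opposite directions. Every array holds RNA of 4-day-old leaves, leaf 3 or 4 of the plant, from plants kept 13 days on soil under 16 h of light and 8 h of darkness and harvested 5 h after the light came on. Of 20270 genes tested, 908 met the rule: they passed the test of the combined difference, and all 4 mutant arrays lay on the same side of both Col arrays.

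ORE15 belongs to the PLATZ proteins, a plant-specific family of zinc-binding regulators, and is known for its part in leaf growth and in the timing of leaf senescence. The plant circadian clock is a loop of repressors. The MYB-like proteins CCA1 and LHY accumulate around dawn and repress genes of the afternoon and evening, the PRR proteins follow through the day and repress CCA1 and LHY, and ELF3, ELF4 and LUX form the evening complex, which represses morning genes. A further set of genes described here, the dark-inducible or DIN genes, is known to rise in leaves kept in darkness or short of sugar. All leaves were taken at the same time of day.

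A level is the log2 signal of a probe less that of its array's 75th percentile, so that 0 marks that percentile, and a difference of 1 is a doubling. Levels of different probes are not comparable with each other. The combined difference is the mean of the ore15-1D mean and the ore15-2 mean, minus the Col mean, with its standard error (SE) from limma, n = 2 arrays per genotype, and rose or fell is written of a gene that met the rule above at an adjusted p below 0.05. Slide 1 held both ore15-1D arrays and Col replicate 1, and slide 2 held Col replicate 2 and both ore15-2 arrays. Each allele was therefore also set against the Col array of its own slide, which gives a pair of differences with no array in common. In bulk leaf RNA, fewer cells of a type and less RNA per cell cannot be told apart.

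The share of spots detected well above background ran from 67.8% to 72.97% over the arrays, saturation was found at 0 spots, and arrays of the same genotype correlated at 0.987 to 0.994. Col replicate 2 correlated with ore15-2 replicate 1, on its own slide, at 0.9886, above its 0.9871 with Col replicate 1. The number of arrays limits the precision. Markers of other cell types were read beside the comparison. Of 10 shoot meristem markers, STM, WUS, CLV3, KNAT1 and CUC2 were well above background on no array, and so were AP3, AG, SEP2 and LFY of 8 floral markers. The other members of both lists were well above background on at least 1 array. The summed level of 8 mesophyll markers, as linear signal over the 75th percentile, was 1990 to 2030 in Col, 1270 to 1380 in ore15-1D and 2240 to 2460 in ore15-2, so that the alleles lay on opposite sides of Col. That of 12 vascular markers was 18.8 to 23.1 in Col, 11.7 to 11.8 in ore15-1D and 16.9 to 22.5 in ore15-2, where it overlapped with Col. That of 15 stomatal markers was 25.5 to 29.7 in Col, 35 to 36.3 in ore15-1D and 23.9 to 29 in ore15-2. That of the 10 meristem markers was 6.31 to 6.9 in Col, 3.77 to 3.99 in ore15-1D and 5.98 to 7 in ore15-2. That of the 8 floral markers was 0.128 to 0.163 in Col, 0.198 to 0.218 in ore15-1D and 0.176 to 0.215 in ore15-2. The floral sum was thus higher in all 4 mutant arrays than in Col, but it includes probes not well above background. The 3 floral markers that passed the filter had a median within-slide difference of 1.24 in ore15-1D and -0.19 in ore15-2. The part of these shifts in the results was not tested.

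ORE15 itself does not move the same way. Its level was -4.90 and -4.79 in Col, 2.75 and 2.66 in ore15-1D and -6.38 and -8.44 in ore15-2, where 1 of 2 arrays was well above background. The probe lies at chromosome 1 positions 11069800 to 11069859 of TAIR10 and is assigned to AT1G31040. The mutant groups lay on opposite sides of Col with no overlap, and the combined difference of 2.49 ± 0.58 (SE) did not pass (adjusted p = 0.0732).

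In all, 1369 of the 20270 genes passed the test of the combined difference (6.75% of genes tested). Of these, 318 lay higher in all 4 mutant arrays than in both Col arrays (1.57% of genes tested) and 590 lay lower (2.91%). On all 6 arrays 285 of the 318 and 537 of the 590 were well above background. For 29 of the 318 no Col array was, and for 13 of the 590 no mutant array was. The counts include genes that passed the filter through their brighter side alone, whose p-values are not read as support. The median combined difference was 0.63 over the genes that rose and -0.82 over those that fell, and 0.0016 over all genes tested. Without regard to the test, 1679 genes lay above both Col arrays in all 4 mutant arrays (8.28%) and 1792 below them (8.84%). The other 461 genes that passed did not meet the rule, and for 271 of them the allele means lay on opposite sides of Col. A stricter reading, in which ore15-1D and ore15-2 each pass against Col in the same direction, held for 231 genes (1.14% of genes tested), 83 higher and 148 lower, and all 231 are among the 908. Their contrasts share the Col arrays.

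The counts rest on how the spread was measured. The test above compares the mean of the alleles with Col and measures spread within each genotype, so a gene may pass with unequal changes in the alleles. With the 4 mutant arrays as a group with no allele term, where the difference between the alleles counts as spread, limma passed 1 gene (1088 at an unadjusted p below 0.05), and 3 genes when slide was added as a block (2433). The 3 were MIOX2, AT2G05770 and ATMG01400, which were well above background on both Col arrays and on 0 of 4 mutant arrays, so that they passed the filter through Col alone and their mutant levels are only bounds. With slide as a block beside genotype, 784 genes passed, with 161 higher and 364 lower in all mutant arrays. Without either Col array or either ore15-1D array 0 genes passed by limma (3844 to 5391 at an unadjusted p below 0.05), and without ore15-2 replicate 1 or 2, 430 and 652 passed.

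**Figure D1:**
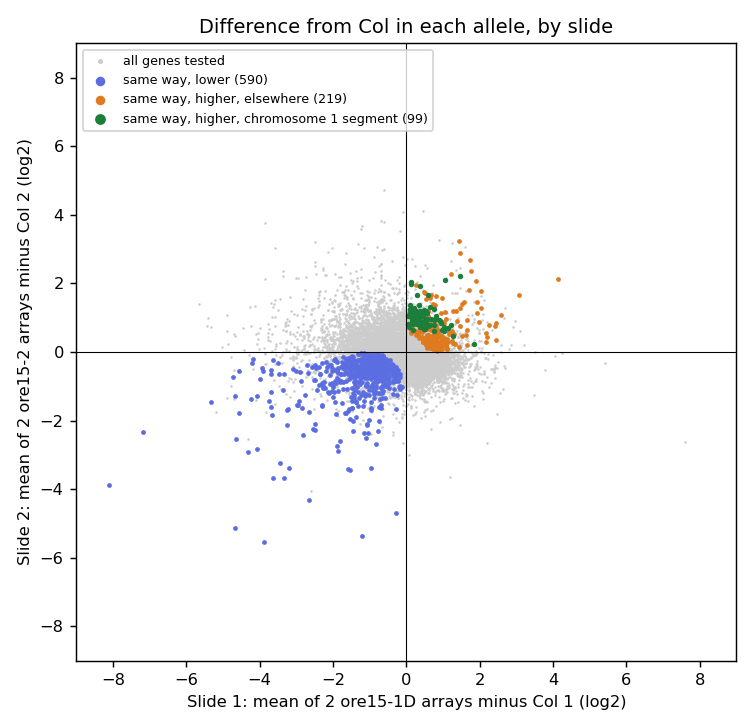
Each point is a gene tested, with its log2 difference from Col on slide 1 (ore15-1D, horizontal axis) and on slide 2 (ore15-2, vertical axis). Colours mark the 590 genes lower the same way, 219 higher the same way, and 99 higher the same way that lie in a segment of chromosome 1 described next.

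A block of neighbouring genes on chromosome 1 supplied many of the genes that rose. Of the 318 genes higher in both alleles 149 lie on chromosome 1, against 138 of the 590 lower genes and 5287 of all 20270 genes tested. Along that chromosome the raised genes crowd into the stretch from AT1G24560 to AT1G30970, positions 8705526 to 11040389, a length of 2.33 Mb that ends just before ORE15. It was found from these data, as the run of neighbouring genes with the largest sum of ore15-2 differences above 0.5, and is therefore described without a test. The stretch holds 416 tested genes, 99 of which rose in both alleles (23.8%) and 1 of which fell, while 219 of the 19854 genes elsewhere rose (1.1%).

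Within the segment it was ore15-2 that stood apart. The median difference from the mean of both Col arrays was 0.91 and 0.92 on the ore15-2 arrays, a level 1.88 times that of Col on the same slide, and -0.03 and -0.02 on the ore15-1D arrays. The ore15-2 arrays lay above the Col array of their slide for 401 of the 416 genes, and above it by more than 0.5 for 348. Over the 197 tested genes in the 1 Mb before the segment the ore15-2 median was -0.06, and over the 156 in the 1 Mb after it 0.03. The run with the next largest sum in either allele and either direction, on chromosome 5 in ore15-1D, held 28 genes. The ore15-2 median over the segment was 0.93 after quantile normalization, 0.68 after background correction by normexp with quantile normalization, and 0.80 in the authors' deposited table, with medians outside it of -0.0086, -0.0034 and -0.005. It was 0.77 after normexp scaled to the 75th percentile.

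Members of the segment are named as such below. Fitted without the 416 genes, 178 genes rose and 509 fell in both alleles, and 1010 passed in either direction. DNA copy number was not measured in these samples.

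**Figure D2:**
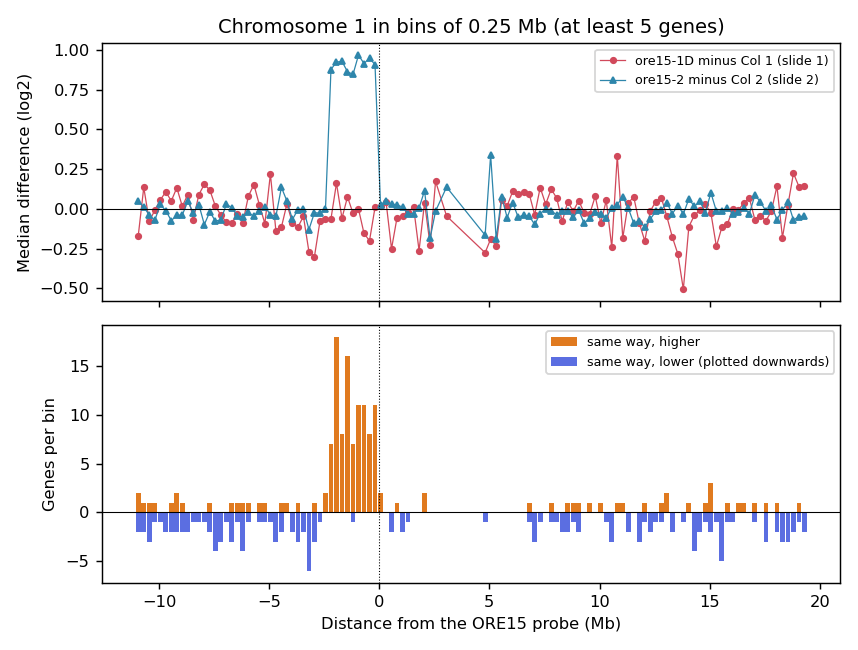
The upper panel gives the median log2 difference from Col over the genes of each 0.25 Mb bin of chromosome 1, for ore15-1D on slide 1 and ore15-2 on slide 2, against distance in Mb from the ORE15 probe. The lower panel counts the genes that rose and fell in both alleles per bin. The ore15-2 line stands near 0.9 in the bins that lead up to ORE15 and near 0 elsewhere, while the ore15-1D line shows no such step.

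More of the shared falls than of the shared rises were large in both alleles. Both within-slide differences were at least 1 for 95 of the 590 genes that fell and for 22 of the 318 that rose. These 117 genes became 68 with probes well above background on all 6 arrays. They became 56 in the authors' deposited table and 34 after normexp with quantile normalization. Of the genes that fell, 435 had the larger within-slide difference in ore15-1D, and of those that rose, 166 did.

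MIOX2 (AT2G19800), one of the myo-inositol oxygenases that open the inositol ring to make glucuronic acid for cell walls, showed the largest fall by the smaller of its within-slide differences. Its level was -4.62 and -2.72 in Col, -9.36 and -9.20 in ore15-1D and -7.64 and -8.05 in ore15-2. The groups were far apart although the Col arrays differed by nearly 2, and no mutant array was well above background. MIOX2 was therefore at least 20.5-fold lower in the mutants. It passed the filter through Col alone, so its combined test (adjusted p = 0.0251) is not read as support. With slide as a block, 4 of the 24 largest rises and falls lost their call, chr31 (adjusted p = 0.0648), AT3G28899 (0.0627), AT3G10580 (0.0653) and AT2G06922 (0.0749).

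Of the 12 largest falls, AT1G07050 and AT5G44973 were well above background on all 6 arrays. AT1G07050, which encodes a protein with the CCT motif found in CONSTANS and the PRR clock proteins, stood at -0.19 and -0.58 in Col, -3.52 and -3.27 in ore15-1D and -3.66 and -4.25 in ore15-2. All 4 mutant arrays lay far below Col, and the fall of -3.28 ± 0.22 (adjusted p = 0.0183) was nearly equal in both alleles, -3.20 on slide 1 and -3.37 on slide 2. The defensin-like gene AT5G44973 had -2.82 and -2.42. Its levels were 0.41 and -0.08 in Col against -2.30 to -2.57 over the mutant arrays, with no overlap (combined -2.62 ± 0.17, adjusted p = 0.0183).

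AT4G33467, a gene of unknown function, fell in both alleles but unequally. Its level was -0.17 and -0.83 in Col, -7.57 and -8.99 in ore15-1D, where neither array was well above background, and -4.10 and -5.30 in ore15-2. It was at least 180-fold lower in ore15-1D than in Col, while the difference on slide 2 was -3.87 for ore15-2.

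ATMG01400, a gene of the mitochondrial genome with no assigned function, had the smallest SE of the 12 largest falls, 0.11. Its level was -5.005 and -4.948 in Col, -8.40 and -8.30 in ore15-1D and -8.78 and -8.49 in ore15-2, none of these mutant arrays well above background. It was at least 8.12-fold lower in the mutants. It passed the filter through Col alone, so its combined test (adjusted p = 0.0157) is not read as support. Of 45 tested mitochondrial genes 1, ATMG01400, met the rule, and of 56 tested plastid genes 0 did. With 1.57% of all genes rising and 2.91% falling, nothing is read from these counts.

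Most of the other genes among the 12 largest falls were not well above background in the mutants. AT3G45560, a RING finger gene, was at least 9.06-fold lower in the mutants, AT4G05540, a nucleoside triphosphate hydrolase-like gene, at least 8.27-fold, and AT3G10580, a homeodomain-like gene, at least 7.27-fold. The transposable element gene AT2G05770 was at least 5.09-fold lower, and a further one, AT2G06922, was well above background on both Col arrays and 1 of 4 mutant arrays (-3.67 ± 0.68, just inside the threshold). AT3G28899, of unknown function, was at -2.02 and -1.05 in Col and was well above background on 1 array of each mutant (-4.71 ± 0.76, adjusted p = 0.0407). AT2G06922 and AT3G28899 passed the filter through Col alone, so their tests are not read as support. Transposable element genes made up 4 of the 590 genes that fell and 1 of the 318 that rose, against 188 of the 20270 genes tested.

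The largest rises were led by EDA12 (AT2G35950), named for an arrest of embryo sac development in its mutant. Its level was -5.86 and -6.50 in Col, -1.53 and -1.93 in ore15-1D and -4.11 and -4.60 in ore15-2. All mutant arrays lay above both Col arrays, of which 1 was well above background, and the combined rise was 3.14 ± 0.26 (adjusted p = 0.0183). EDA12 passed the filter through the mutants alone, so this p-value is not read as support.

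ASG4 (AT1G01520), a MYB-like protein of the REVEILLE family to which the clock regulator RVE8 also belongs, rose by a like amount in both alleles. It stood at -5.07 and -5.51 in Col, -3.33 and -3.28 in ore15-1D and -3.48 and -2.80 in ore15-2, above background on all 6 arrays. The mutant arrays did not overlap with Col, and the combined rise was 2.07 ± 0.23 (adjusted p = 0.0255).

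AT2G41640, a glycosyltransferase gene, had a level of -1.73 and -1.37 in Col, -0.65 and 0.07 in ore15-1D and 1.99 and 1.77 in ore15-2. The order Col, ore15-1D, ore15-2 held with no overlap, and the combined rise was 2.35 ± 0.24 (adjusted p = 0.0225).

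For 7 of the 12 rises both Col arrays were not well above background, so that only a bound can be given. The RWP-RK regulator gene AT4G38340 was at least 4.50-fold higher in the mutants, the chromatin remodelling gene chr31 (AT1G05490) at least 3.91-fold, and PUM9, a pumilio-type RNA-binding protein, at least 3.23-fold. The bounds were at least 3.13-fold for the bromodomain gene AT2G42150, 2.75-fold for the F-box-associated gene AT3G22770, 2.69-fold for AT2G45685, annotated as other RNA, and 2.63-fold for AT5G60290, of unknown function. AFP1, which encodes a partner of the abscisic acid regulator ABI5, rose by 1.65 ± 0.27 (adjusted p = 0.0409), and the methyltransferase-like gene AT5G54400 by 1.36 ± 0.12 (adjusted p = 0.0196), each with 1 of 2 Col arrays well above background. AFP1 and AT5G54400 passed the filter through the mutants alone, so their p-values are not read as support. Of the 12 rises, 11 turned negative after normexp correction scaled to the 75th percentile, all except AT2G41640. In that setting the 1st and 75th percentiles of Col replicate 1 lay 0.48 apart, against 2.97 to 4.50 on the other arrays.

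**Figure D3:**
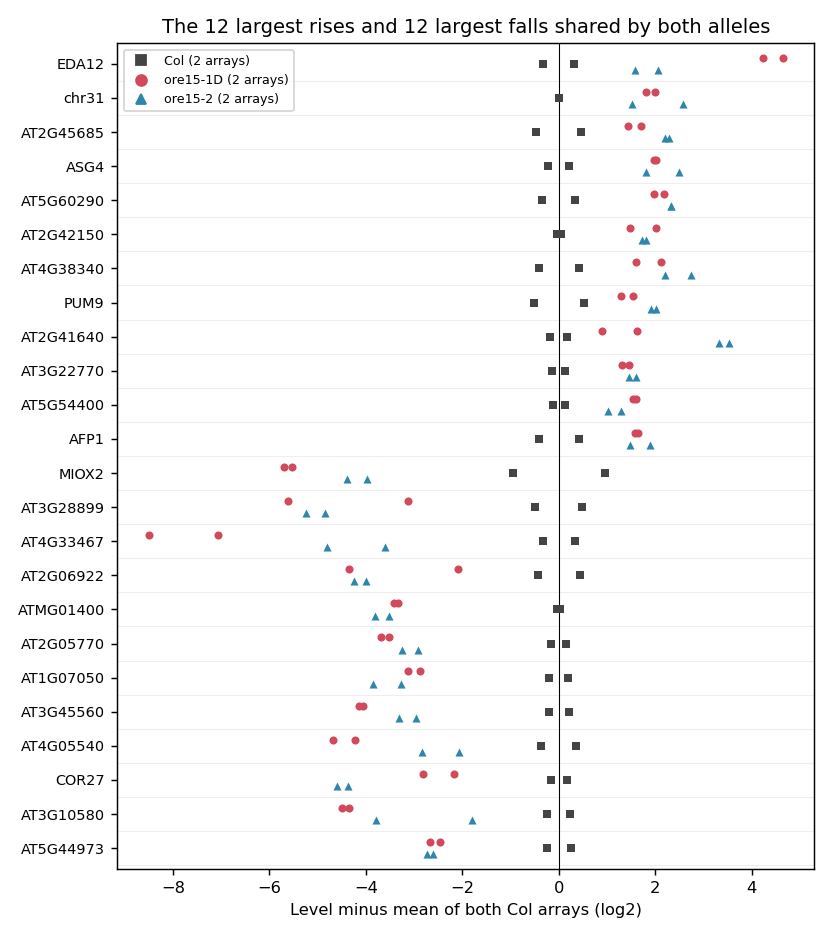
Points give the level on each array minus the mean of both Col arrays (log2) for the 12 largest rises and 12 largest falls shared by both alleles, ranked by the smaller within-slide difference. Squares are Col, circles ore15-1D and triangles ore15-2, 2 arrays each. Every mutant point of a gene lies on the same side of both Col points.

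The clock genes held the densest group of shared changes among the lists examined. The lists were chosen with earlier results of these data known, so this ranking is a description only. Of 13 morning clock genes tested, 6 rose (LHY, CCA1, LNK3, RVE8, LNK2 and PRR9) and 1 fell (RVE7). Of 12 day and evening clock genes, 7 fell (PRR5, ELF4, LUX, FKF1, GI, ELF3 and PRR7) and 0 rose. Over all genes tested 1.57% rose and 2.91% fell. The stricter reading, in which each allele passes against Col, held for 1 of the morning genes (RVE8) and 5 of the day and evening genes. It held for 1.14% of all genes tested. The median combined difference was 0.33 over the morning list and -0.77 over the day and evening list, against 0.0016 over all genes. No member of these lists lies in the chromosome 1 segment.

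LHY, a MYB-like repressor at the head of the morning loop, had a level of -2.73 and -2.22 in Col, -1.54 and -1.47 in ore15-1D and -0.38 and 0.50 in ore15-2. Its partner CCA1 was at -0.55 and -0.18 in Col, 0.29 and 0.20 in ore15-1D and 1.15 and 1.73 in ore15-2. Both genes were highest in ore15-2 and intermediate in ore15-1D, with no overlap between genotypes. The combined rise was 1.75 ± 0.29 for LHY (adjusted p = 0.0421) and 1.21 ± 0.20 for CCA1 (adjusted p = 0.0434). In ore15-1D alone neither passed against Col by limma (adjusted p = 0.0735 for LHY and 0.0959 for CCA1).

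Among the RVE and LNK genes of the list, RVE8, LNK3 and LNK2 rose with them. RVE8, which activates evening genes together with the LNK proteins, stood at -5.003 and -4.700 in Col, -4.16 and -4.27 in ore15-1D and -3.86 and -3.69 in ore15-2. Its within-slide difference was 0.79 in ore15-1D and 0.92 in ore15-2. Against both Col arrays it was 0.64 in ore15-1D and 1.08 in ore15-2, with no overlap between the mutant genotypes. The combined difference of 0.86 ± 0.12 (adjusted p = 0.0346) turned to -1.04 after normexp scaled to the 75th percentile. LNK3 rose by 1.17 ± 0.20 (adjusted p = 0.0434) and LNK2 by 0.61 ± 0.09 (adjusted p = 0.0353), both more in ore15-2. PRR9, the first of the PRR repressors of the day, was just inside the threshold (0.54 ± 0.10), and LNK1 lay above both Col arrays in all mutant arrays without passing (0.33 ± 0.10, adjusted p = 0.125).

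The rest of the morning list split by allele. RVE1, RVE2, RVE4, RVE6 and LNK4 lay below both Col arrays in ore15-1D and above both in ore15-2. For RVE1, which links the clock to auxin, the within-slide difference was -0.33 in ore15-1D and 0.79 in ore15-2, and the combined difference was 0.23 ± 0.24 (adjusted p = 0.568). RVE7 was lower in all mutant arrays (-0.47 ± 0.08, adjusted p = 0.0431).

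On the opposite side of the cycle the evening complex fell. ELF4 stood at -0.09 and -0.24 in Col, -2.76 and -2.52 in ore15-1D and -2.68 and -2.26 in ore15-2. The mutant genotypes overlapped with each other and were both far below Col (-2.39 ± 0.15, adjusted p = 0.0183). LUX, the DNA-binding member, was at 0.30 on both Col arrays, -1.05 and -1.09 in ore15-1D and -1.27 and -1.93 in ore15-2 (-1.64 ± 0.20, adjusted p = 0.0275). ELF3, the scaffold of the complex, fell less (-0.51 ± 0.09, adjusted p = 0.0493).

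PRR5 is a repressor of CCA1 and LHY that peaks in the afternoon. It stood at 1.704 and 1.816 in Col, 0.02 and 0.33 in ore15-1D and -1.34 and -1.94 in ore15-2, in that order with no overlap (-2.49 ± 0.20, adjusted p = 0.0183). FKF1, a blue-light receptor that targets CDF repressors for breakdown, fell by -1.17 ± 0.17 (adjusted p = 0.0368), with -1.17 on slide 1 and -1.16 on slide 2. Its Col arrays differed, at 0.57 and 0.04. Against both of them FKF1 fell by -0.91 in ore15-1D and -1.43 in ore15-2. Its partner GI fell by -0.93 ± 0.13 (adjusted p = 0.0346) and PRR7 by -0.35 ± 0.06 (adjusted p = 0.0486).

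A further 3 genes of this list lay below both Col arrays in all mutant arrays without passing. PRR3 was at -1.64 and -2.05 in Col, -4.21 and -4.26 in ore15-1D and -4.74 and -7.46 in ore15-2, and the spread within ore15-2 was wide (-3.32 ± 0.77, adjusted p = 0.0729). TOC1 had a within-slide difference of -0.13 in ore15-1D and -1.06 in ore15-2 (adjusted p = 0.0839), and BOA, a close relative of LUX, -0.39 and -0.81 (adjusted p = 0.141). The photoreceptor genes ZTL and LKP2 did not pass, and their ore15-2 arrays overlapped with Col.

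With slide as a block, 1 of the morning genes rose and 4 of the day and evening genes fell. Without regard to the test, 7 morning genes lay above both Col arrays in all mutant arrays and 10 day and evening genes below them. Over all genes tested, 8.28% lay above and 8.84% below. The list counts became 7 and 9 after quantile normalization and in the authors' deposited table, and 4 and 7 after normexp scaled to the 75th percentile. In the other direction, 1 morning gene lay below Col. In the deposited table and after normexp with quantile normalization, 1 day and evening gene lay above Col.

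**Figure D4:**
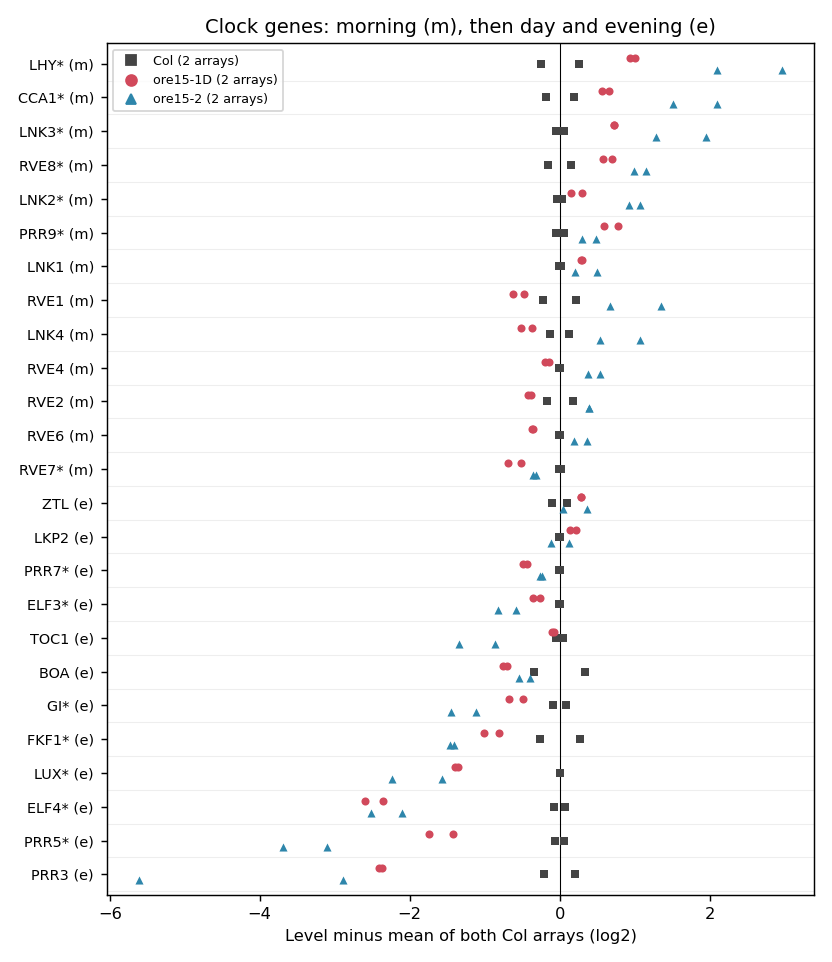
Points give the level on each array minus the mean of both Col arrays (log2) for 13 morning clock genes (m) and 12 day and evening clock genes (e), each list ordered by the combined difference. A star marks a gene that passed the test with all mutant arrays beyond both Col arrays. Morning genes with a star lie to the right of Col except RVE7, and day and evening genes with a star all lie to the left.

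Clock outputs include genes of flowering and cold responses. Of 21 photoperiod and cold output genes tested, 1 rose and 4 fell, with a median combined difference of -0.18. Over all genes, 1.57% rose and 2.91% fell, with a median of 0.0016. The 4 were COR27, one of the 12 largest falls, its homologue COR28, both cold-regulated genes that feed back on the clock, GRP7 and GRP8. COR27 and COR28 also passed with slide as a block, and the other 3 did not. COR27 was at -3.72 and -4.06 in Col, -6.06 and -6.70 in ore15-1D, with 1 array well above background, and -8.27 and -8.48 in ore15-2, with none. It was at least 14.6-fold lower in ore15-2 than in Col. COR27 passed the filter through Col alone, so its combined test (adjusted p = 0.0183) is not read as support.

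COR28 stood at -4.02 and -3.70 in Col, -5.76 and -6.09 in ore15-1D and -6.17 and -6.68 in ore15-2, where 1 array was well above background (-2.32 ± 0.20, adjusted p = 0.0186). CDF2, a DOF repressor of CONSTANS and the riser of the list, was at -1.68 and -1.60 in Col and between -0.82 and -0.29 over the mutant arrays (1.03 ± 0.13, adjusted p = 0.0288). The clock-driven RNA-binding genes GRP8 (-1.12 ± 0.20, adjusted p = 0.0457) and GRP7 (-1.75 ± 0.32, just inside the threshold) fell more in ore15-2. The cold regulators CBF1, CBF2 and CBF3 had mutant arrays on both sides of Col, with combined differences of -0.15 to 0.23.

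Of 29 tested genes in a list of B-box factors, PIF factors, photoreceptors and their partners, 5 rose and 0 fell, with a median of 0.22, where 1.57% of all genes rose and 2.91% fell. All but SPA3 also passed with slide as a block. HY5, the bZIP factor that promotes light-grown development, was at -1.53 and -1.82 in Col, -0.47 and -0.46 in ore15-1D and -1.17 and -1.18 in ore15-2. It was highest in ore15-1D (0.85 ± 0.10, adjusted p = 0.0275), while its relative HYH was highest in ore15-2 (within-slide 0.16 and 1.22, combined 0.69 ± 0.08, adjusted p = 0.0276).

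BBX19, a B-box factor, was at -1.94 and -2.06 in Col, -1.35 and -1.37 in ore15-1D and -1.13 and -0.86 in ore15-2 (0.82 ± 0.10, adjusted p = 0.0298), and turned to -0.04 after normexp scaled to the 75th percentile. SPA3, a partner of the ubiquitin ligase COP1, rose by 0.73 ± 0.12 (adjusted p = 0.0416), and ELIP1, an early light-induced protein of the thylakoid, by 0.90 ± 0.14 (adjusted p = 0.0393). HFR1 passed the combined test (1.03 ± 0.14) without meeting the rule, since its within-slide difference was 2.03 in ore15-1D and 0.03 in ore15-2.

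Of 21 tested genes of phenylpropanoid and flavonoid synthesis, 4 rose and 0 fell, with a median of 0.25, against the same shares over all genes. The alleles split, with a median within-slide difference of -0.17 in ore15-1D and 0.65 in ore15-2. Only UGT78D1, in the chromosome 1 segment, also passed with slide as a block (adjusted p = 0.0496), and CHI (0.0651), F3H (0.0565) and UGT78D2 (0.0654) did not. CHI, chalcone isomerase, was at -0.38 on both Col arrays, -0.20 and -0.10 in ore15-1D and 0.26 and 0.22 in ore15-2 (0.43 ± 0.07, adjusted p = 0.0408). F3H, flavanone hydroxylase, rose by 0.58 ± 0.08 (adjusted p = 0.0346), with within-slide differences of 0.17 in ore15-1D and 0.99 in ore15-2. The flavonoid glucosyltransferase gene UGT78D2 rose by 0.57 ± 0.09 (adjusted p = 0.0407). UGT78D1, the other of the 4, lies in the chromosome 1 segment and had within-slide differences of 0.08 in ore15-1D and 1.36 in ore15-2.

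CHS, chalcone synthase, and FLS1, flavonol synthase, lay above both Col arrays in all mutant arrays without passing (0.77 ± 0.15, adjusted p = 0.0536, and 0.45 ± 0.10, adjusted p = 0.0668). DFR, dihydroflavonol reductase, was at -1.78 and -1.62 in Col, -3.64 and -3.23 in ore15-1D and 1.18 and 1.34 in ore15-2, and its combined difference of 0.61 ± 0.14 did not pass (adjusted p = 0.0738).

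Of 21 tested dark and low-sugar inducible genes, 5 fell (ASN1, SEN1, DIN10, SEN5 and DIN4) and 0 rose, with a median of -0.37, where 2.91% of all genes fell. SEN5 (adjusted p = 0.0544) and DIN4 (0.0526) did not pass with slide as a block, and the other 3 did. ASN1, an asparagine synthetase that stores nitrogen when carbon is short, had a level of 0.457 and 1.203 in Col, -6.21 and -7.23 in ore15-1D and -0.80 and -1.45 in ore15-2. The fall was far larger in ore15-1D, -7.17 on slide 1 where 1 of 2 mutant arrays was well above background, than the -2.33 of ore15-2 on slide 2 (combined -4.75 ± 0.40, adjusted p = 0.0183).

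SEN1, first described as a dark-induced senescence gene, was at -1.93 and -1.21 in Col, -5.02 and -5.37 in ore15-1D and -2.94 and -3.72 in ore15-2 (-2.69 ± 0.32, adjusted p = 0.0274). DIN10, a raffinose synthase-like gene, was at 3.35 and 4.38 in Col, 1.66 and 1.32 in ore15-1D and 1.48 and 1.53 in ore15-2. Its mutant arrays were close together and all below Col (-2.37 ± 0.31, adjusted p = 0.0315). SEN5 fell more in ore15-2, from 5.74 and 6.13 in Col to 4.91 and 5.02 in ore15-1D and 4.16 and 3.48 in ore15-2 (-1.54 ± 0.23, adjusted p = 0.0372).

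DIN4, a subunit of the enzyme that breaks down branched-chain keto acids, fell by less (-0.48 ± 0.09, adjusted p = 0.0495). The trehalose phosphate synthase genes TPS8 and TPS9 and the kinase gene KIN10 lay below both Col arrays in all mutant arrays without passing. The low-sugar gene BT2 could not be placed, since its Col arrays differed by over 2 (-0.10 and 2.02) and overlapped with ore15-2.

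The counts in the other lists were of 1 or 2 genes and are given for the genes named, since 1.57% of all genes rose and 2.91% fell. In chlorophyll synthesis 1 of 14 tested genes fell, PORB, a light-dependent protochlorophyllide reductase (-0.75 ± 0.08, adjusted p = 0.0251), with 7.54 and 7.46 in Col against 6.66 to 6.92 over the mutant arrays. Of 24 gibberellin and brassinosteroid genes 2 fell, GASA14 (-1.29 ± 0.18, adjusted p = 0.0339) and the receptor gene GID1A. Of 29 leaf size and polarity regulators AIL5, an AINTEGUMENTA relative, fell (-0.73 ± 0.08, adjusted p = 0.0256) and TCP24 rose. KRP6, a cyclin-dependent kinase inhibitor, rose by 0.59 ± 0.08 (adjusted p = 0.0339) as 1 of 20 in its list, and turned to -0.03 after normexp scaled to the 75th percentile. TCP24, the expansin gene EXPA10 and SPL11 rose, and all 3 lie in the chromosome 1 segment.

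Of the vascular markers 3 of 12 fell and 0 rose, where 2.91% of all genes fell and 1.57% rose. The 3 markers were SWEET12, a sucrose exporter of the phloem (-2.18 ± 0.33, adjusted p = 0.0376), XCP2, a peptidase of xylem vessels (-0.62 ± 0.08, adjusted p = 0.033), and VND6, a regulator of vessel formation (-0.54 ± 0.09, adjusted p = 0.0461). XCP2 also passed with slide as a block (adjusted p = 0.0467), and SWEET12 (0.0513) and VND6 (0.0733) did not. Their summed level is given above and was lower in ore15-1D than in Col, while ore15-2 overlapped with Col.

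Lists this short may hold 0 genes at the shares over all genes, 1.57% and 2.91%, so nothing is read from a count of 0. Among 12 GRF and GIF genes, regulators and co-activators of cell number in leaves, 0 met the rule by limma (2 at an unadjusted p below 0.05), and the median within-slide difference was 1.04 in ore15-1D and -0.42 in ore15-2. Among 32 genes of G2 and M phase 0 met it (2 at an unadjusted p below 0.05), with 0.64 and -0.53. The Calvin cycle, jasmonate, salicylic acid and defence, auxin, cytokinin, touch, glucosinolate, ribosome biogenesis and DNA replication lists also had 0 genes that met the rule, with 0 (touch) to 12 (glucosinolate) genes at an unadjusted p below 0.05.

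**Figure D5:**
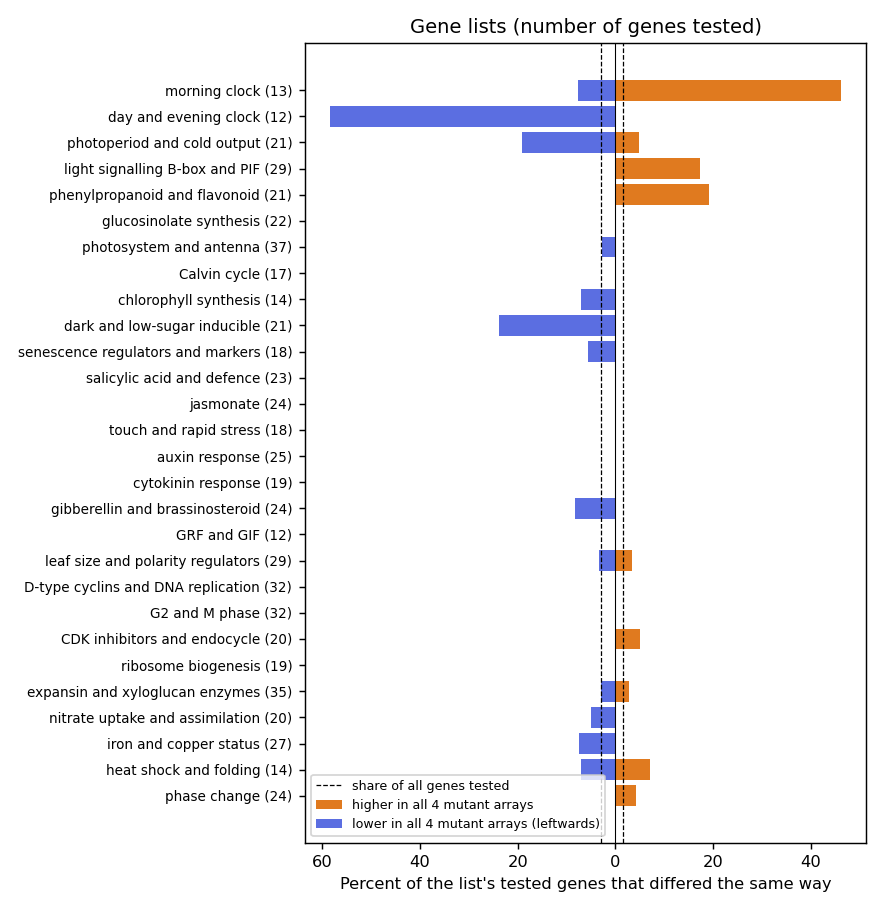
Bars give, for each of 28 gene lists, the percentage of its tested genes that rose (rightwards) or fell (leftwards) in all mutant arrays and passed the test. Dashed lines mark the shares over all genes tested, 1.57% and 2.91%. The clock lists reach furthest on either side, followed by the dark and low-sugar list among the falls. The lists were chosen with earlier results of these data known.

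A shared direction did not mean a shared size. Among the 908 genes the alleles differed from each other in 631 (69.5%; limma, adjusted p below 0.05), with the larger change in ore15-1D for 461 and in ore15-2 for 170. Over all genes tested the share was 55.7%. Because ore15-1D and ore15-2 lie on different slides, this contrast holds the slide too, and with slide as a block, carried by the Col pair, 0 of the 908 passed. Against Col, 813 of the 908 passed in ore15-1D and 326 in ore15-2. Over all 20270 genes tested, 8237 passed in ore15-1D and 757 in ore15-2.

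Among genes that passed the combined test with the alleles on opposite sides of Col, a wide split was seen in AT4G20860, a berberine bridge enzyme-like oxidase. It stood at -2.24 and -1.79 in Col, -5.89 and -5.82 in ore15-1D and -0.56 and -0.23 in ore15-2, so that its combined difference of -1.11 ± 0.17 (adjusted p = 0.0383) describes neither allele. AT1G09932, NATA1, AT1G10340 and the cytochrome P450 gene AT3G44970 were the others of the 5 genes with the largest opposite movement, each lower in ore15-1D, where none was well above background, and higher in ore15-2. At the threshold of the combined test, the genes just inside, none of which met the rule, were LYK4 (-0.74 ± 0.14), AT3G12760 (0.37 ± 0.07), RLP2 (-0.47 ± 0.09) and AT1G52190 (-0.65 ± 0.12), and the genes just outside were AT4G37225 (-0.61 ± 0.11), AT3G19430 (-0.56 ± 0.10), AT3G62160 (-0.64 ± 0.12) and WRKY29 (-0.49 ± 0.09).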

How the data were processed

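Each of 6 leaf RNA samples was measured with Cy3 label on a 1-colour Agilent array. Groups came from the sample labels, and the series' design text calls the samples of a genotype independent, so p-values measure the spread between them. The authors' linear spot intensity came from Agilent Feature Extraction 11.5, which the submitters' processing notes name, and is background-subtracted, per the file headers. The log2 gene table deposited by the authors, with scaling not given in the sources used here, served as an alternative, and so did the median signal and background intensity of the deposited scanner files. Probes were tied to TAIR10 loci by the deposited array-element table. Of 43603 probes 37257 had exactly 1 locus, covering 28309 loci, and the brightest probe of a locus was used. Symbols came from a RefSeq table of TAIR10.1.

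Control and outlier spots were left out, and each array's 75th percentile was subtracted from the log2 processed signal. The filter kept loci detected above background on both arrays of 1 or more genotypes, 20277 in all, of which 20270 had a combined difference. The p-value of a gene that passed the filter through its brighter side alone is not read as support. The 3-genotype model was fitted to all 6 arrays with limma 3.58.1 in R 4.3.3 with 3 residual degrees of freedom and 1.8 prior ones. All tests are two-sided, with Benjamini-Hochberg adjustment over all genes tested. The code was tested on simulated data. Where a probe was not well above background on every array of the dim side, the bound sets the bright mean against, per array, the higher of the lowest signal well above background and the probe's own.

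The members, the 28 pathway and 7 marker lists and the tests were chosen with earlier results of these data known. The rule for named genes takes ORE15, the 12 largest shared rises and falls by the smaller within-slide difference, where every array of the higher side was above background, up to 4 members of each list, the 5 widest splits between alleles and 4 genes on each side of the threshold. Other list members, and the chromosome 1 segment with its genes, were named after their values were seen. Of the list symbols, 3 had no locus.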

Additional observations from a re-analysis of the deposited data

Results flagged for a closer look

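Among the genes named by rule, the size of the change differed between ore15-1D and ore15-2 for the following, by the limma contrast of the alleles (adjusted p below 0.05). With slide as a block none passed, the lowest adjusted p being 0.0507 (FRO2), and slide and allele cannot be told apart in the contrast without it. Values are ore15-1D minus ore15-2 in log2.

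Over the chromosome 1 segment the median of this difference was -0.93, with both ore15-2 arrays above Col and both ore15-1D arrays slightly below. This was not tested.

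Among the genes that fell in both alleles, the difference was -5.59 for ASN1, -3.58 for AT4G33467, -3.32 for FRO2, -2.19 for SWEET12, -1.99 for AT4G05540, -1.86 for SEN1, -1.84 for XTH30, -1.50 for HSFA7A, -1.28 for NRT1.7, -0.97 for AT3G45560, -0.82 for ETC2, -0.66 for PSAE-2, -0.39 for XCP2 and -0.28 for FER3, all lower in ore15-1D. It was 2.00 for COR27, 1.98 for GRP7, 1.81 for PRR5, 1.14 for SEN5 and 0.24 for GID1A, all lower in ore15-2. Of the genes lower in ore15-1D, only AT4G33467, AT4G05540 and AT3G45560 also passed against Col in ore15-2. The ore15-2 difference from Col was only -0.25 for FRO2, -0.28 for XTH30, -0.38 for HSFA7A and -0.13 for PSAE-2. Of the genes lower in ore15-2, GRP7 did not pass against Col in ore15-1D.

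Among the genes that rose in both alleles, EDA12 (2.62) and HY5 (0.70) were higher in ore15-1D. The others were higher in ore15-2, with -2.16 for AT2G41640, -1.56 for LHY, -1.20 for SPL11, -1.19 for CCA1, -1.16 for HSP70, -1.12 for UGT78D1, -1.04 for ELIP1, -0.90 for LNK3, -0.80 for F3H, -0.59 for TCP24, -0.51 for EXPA10, -0.44 for RVE8, -0.39 for CHI and -0.35 for KRP6. Of the genes higher in ore15-2, only AT2G41640, EXPA10, RVE8 and KRP6 also passed against Col in ore15-1D. EDA12 and HY5 did not pass against Col in ore15-2. UGT78D1, TCP24, EXPA10 and SPL11 lie in the chromosome 1 segment. For 6 genes the value is set against arrays not well above background, so the size of the allele difference cannot be read from it. AT4G05540 and AT3G45560 were well above background on no mutant array, AT4G33467 and FRO2 on 0 of 2 ore15-1D arrays, COR27 on 1 of 2 ore15-1D and 0 of 2 ore15-2 arrays, and ASN1 on 1 of 2 ore15-1D arrays. FRO2 was at least 11.8-fold lower in ore15-1D than in Col.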

How the results depend on the processing

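The counts of genes depend strongly on the spread the test uses. Among the 1369 genes that passed, 318 higher and 590 lower in all mutant arrays, the count was 0 in all 3 after normexp scaled to the 75th percentile (971 genes at an unadjusted p below 0.05 by limma) and 0 in all 3 with no filter on dim probes (7468). It was 784, 161 and 364 with slide as a block, 1, 0 and 1 with 2 sides and no allele term, 3, 0 and 3 with 2 sides and slide, 244, 31 and 141 with the replicate block, and 394, 53 and 215 with a log2 difference of at least 1. A trend in the spread gave 2295 in all and 498 higher. Leaving out 1 array gave 0 to 652, 0 to 157 and 0 to 365, and without the chromosome 1 segment, an alternative chosen after seeing the data, 178 genes rose. The 54 list genes that met the rule became 0 after normexp scaled to the 75th percentile, 0 with no filter, 25 with slide, 0 in both fits with 2 sides, 9 with the replicate block and 0 to 28 without 1 array. The 631 genes whose alleles differed in size became 0 after normexp scaled to the 75th percentile, 0 with slide and 347 to 623 without 1 array. The 117 genes with both within-slide differences of at least 1 became 45 after normexp scaled to the 75th percentile, 34 after normexp with quantile normalization, 68 with probes well above background on all 6 arrays and 56 in the authors' deposited table. Of the genes that passed, 33.8% were higher, against 42.2% after quantile normalization, 42.4% after normexp with quantile normalization and 39.9% in the deposited table. The replicate numbers did not pair the samples (correlations of deviations -0.09, 0.13 and -0.01).

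Directions turned mainly after normexp scaled to the 75th percentile, where the median of all genes was -0.20 and 746 of the 908 genes kept their sign (729 relative to that median). There the combined difference was -0.066 for EDA12, -1.15 for chr31, -1.32 for AT2G45685, -0.40 for ASG4, -1.27 for AT5G60290, -1.33 for AT2G42150, -1.03 for AT4G38340, -1.19 for PUM9, -1.30 for AT3G22770, -1.10 for AT5G54400, -1.06 for AFP1, -1.04 for RVE8, -0.038 for BBX19, 0.017 for PSAE-2, -0.03 for KRP6 and -0.23 for HSP70. It was 0.052 for AT1G09932 and 0.011 for AT1G10340 after normexp with quantile normalization, and 0.0005 for NATA1 and 0.023 for AT1G10340 in the deposited table. The cause was not tested. Promoter motifs and their alternatives were not run. Signal over background limits the genes given as bounds.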

Other observations

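Several genes outside the lists, named after their values were seen, had nearly equal within-slide differences in both alleles. MGL, the methionine gamma-lyase that breaks down methionine, rose by 1.22 ± 0.07 (SE, limma, adjusted p = 0.0183), with 1.26 on slide 1 for ore15-1D and 1.19 on slide 2 for ore15-2. FBH3, a bHLH activator of CONSTANS, rose by 0.81 ± 0.14 (adjusted p = 0.0458), with 0.82 and 0.80. PP2-A13, a phloem protein 2-like F-box gene, fell by 1.41 ± 0.07 (adjusted p = 0.0183), with -1.37 and -1.45. The RING-type zinc finger gene AT5G22920 fell by 1.66 ± 0.27 (adjusted p = 0.0407), with -1.60 and -1.72.

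Others moved the same way by unequal amounts. AT5G23240, a DNAJ-domain gene, had a difference of -1.22 in ore15-1D and -5.36 in ore15-2, and AT2G33830, a dormancy and auxin associated gene, had -1.61 and -3.42. AT2G20670 and AT4G32480, both of the DUF506 family of unknown function, leaned the other way, with -5.34 and -1.44 for the first and -4.69 and -1.30 for the second. The kinase genes WAG1 and WAG2, which act on auxin transport, both rose more in ore15-1D, with 1.25 and 0.62 for WAG1 and 2.27 and 0.79 for WAG2. The difference between alleles was not tested further for these genes.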
